A study of Canis lupus familiaris with 18 samples.

Results

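The genes described here were among the most abundant transcripts of unlit MDCKI + bPAC cells. Their lit level stayed within a set limit of the unlit level at 1 dose or at both. MDCKI is a line of dog kidney epithelial cells, and bPAC is a bacterial adenylyl cyclase that makes the second messenger cyclic AMP (cAMP) under blue light. The level is CPM, the reads of a gene per 1000000 reads assigned to genes in its library, and the reads are tags near the 3′ end of a transcript, with no scaling by length. Members were chosen by their CPM in the bPAC libraries. A gene was a member if its mean CPM over the 3 unlit bPAC libraries was at least 1000 and if the log2 ratio of lit to unlit mean CPM (1 added to each mean) lay between -0.8 and 0.8 at low light or at high light. A block of 37 consecutive gene IDs and 1 single ID were left out by name. Of 32220 gene IDs, 152 reached 1000 CPM, and 120 of these were members. Of the other 32, 11 belonged to the block, and 21 had ratios beyond the limit at both doses (18 lower in the light, 2 higher and 1 of mixed sign). Among the members, 97 lay within the limit at both doses, 11 at low light alone and 12 at high light alone.

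In epithelial cells cAMP acts largely through protein kinase A, a kinase held inactive by regulatory subunits that release the catalytic subunits when they bind cAMP. The free catalytic subunits phosphorylate channels, cytoskeletal proteins and the transcription factor CREB, and in kidney epithelium the pathway is best known for control of water and ion transport. The most abundant messenger RNAs of cultured cells usually code for parts of the ribosome, the cytoskeleton, metabolic enzymes and protein folding factors, and they supply a large part of the reads in a library. Because CPM is a share, a transcript can take more of a library when its own amount rises or when other transcripts fall. In these bulk samples, fewer cells of a type and less RNA per cell cannot be told apart. The files give genes by Ensembl ID only, and 0 of the 32220 IDs were found in the reference table used here, which is of another genome build. Members are therefore given by ID without a function, and the kidney markers of MDCKI cells and the bPAC transgene were not checked.

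The study examined 3 light doses in both lines. The 18 libraries came from parental MDCKI cells, which carry no bPAC, and from MDCKI + bPAC cells. Both lines were plated in 6-well plates in phenol red-free medium with 0.5% fetal calf serum. The lit groups were lit for 2 h from 16 h after plating. There were 3 unlit, 3 low-light and 2 high-light parental libraries, and 3 unlit, 4 low-light and 3 high-light bPAC libraries. All bPAC groups share the transgene and all lit parental groups share the light without it. The labels do not say whether the bPAC line is a single clone, which promoter drives bPAC, or whether libraries of a group came from separate cultures. The p-values therefore measure the spread between libraries only, and that spread may be technical.

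Each library had between 2638511 and 9610144 gene reads (median 4207161), and no member had fewer than 642 reads in any library. Libraries of some groups stood apart from each other. On the first principal component of all tested genes, with 37.5% of the variance, bPAC low light 1 and 4 lay at 59.8 and 67.2 and bPAC low light 2 and 3 at 10.99 and 15.1, while parental dark 3 lay at -13.5 and the other unlit parental libraries at -47.0 and -47.9. The bPAC high light libraries 1, 2 and 3 also lay apart, at 22.7, 53.2 and 6.70. Several of the members' shares, counts and medians that rest on the low-light bPAC libraries are also given without each pair, where stated. Other values that rest on them, such as the spread, shares outside the members and counts on the TMM scale, are over all 4 only. Single members are given by library. Library numbers are in deposit order and pair nothing across groups.

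In unlit bPAC cells the members spanned 1016 to 12916 CPM on average, with a median of 1666 CPM. There were 11 members at 5000 CPM or more, 35 from 2000 to 5000 CPM and 74 from 1000 to 2000 CPM. The same genes were abundant in unlit parental cells, where 108 of the 120 averaged at least 1000 CPM. The log2 ratio of unlit bPAC to unlit parental mean CPM had a median of -0.05 and ranged from -0.96 to 2.58, with 53 members above and 67 below 0. At least 2-fold differences were seen for 9 members, all higher in bPAC cells, and for 0 in the other direction. Since a high level in unlit bPAC cells chose the members, this direction was fixed in part by the choice and carries no test.

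ENSCAFG00000007492, singled out after its values were seen, differed most between the unlit lines. Its CPM was 1749, 1343 and 1649.5 in the unlit bPAC libraries and 325, 204 and 263 in the unlit parental libraries, so the ranges were far apart. It stayed low in lit parental cells, at 296, 336 and 337 CPM under low light and 396 and 351 CPM under high light. In bPAC cells it had 1167, 1672, 1758 and 438 CPM under low light and 2120.5, 1941 and 1851 CPM under high light, with bPAC low light 4 below every other library of the line.

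Together the members took more of the library in high-light bPAC cells than in unlit ones (description only, since these libraries chose the members). In unlit bPAC cells the 120 members held 29.3, 28.9 and 29.6% of gene reads. Under low light they held 30.8, 29.2, 29.8 and 30.5%, which overlapped the unlit range. Under high light they held 34.1, 34.1 and 32.7%, above every unlit and low-light library. The means were 29.3% ± 0.335 (SD, n = 3), 30.05% ± 0.731 (SD, n = 4) and 33.6% ± 0.785 (SD, n = 3), a gain of 0.793 percentage points under low light and of 4.39 points under high light. The low-light gain was 0.208 points without bPAC low light 1 and 4 and 1.38 points without 2 and 3. The high-light gain was 4.16, 4.17 and 4.84 points without bPAC high light 1, 2 and 3 in turn. Reads aligned to more than 1 place were not assigned to a gene by the authors' counting. Of all deposited counts, which list 0 unaligned reads, they made up 38.5 to 39.9% in unlit, 37.5 to 40.7% in low-light and 41.7 to 44.4% in high-light bPAC libraries. Their part in the gain was not tested.

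In parental cells the share stayed within 1 range. There the members held 29.1, 28.3 and 29.7% of gene reads in unlit, 30.8, 28.1 and 28.6% in low-light and 29.8 and 28.4% in high-light parental libraries. The means of 29.0% ± 0.707 (SD, n = 3), 29.2% ± 1.41 (SD, n = 3) and 29.1% ± 0.934 (SD, n = 2) differed by 0.133 points at low light and 0.0733 points at high light, less than the spread between libraries. Neither difference kept its sign when libraries were left out in turn: low light gave -0.671 points without parental low light 1 and -0.247 points without parental dark 2, and high light gave -0.587 points without parental high light 1 and -0.307 points without parental dark 2.

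**Figure D1:**
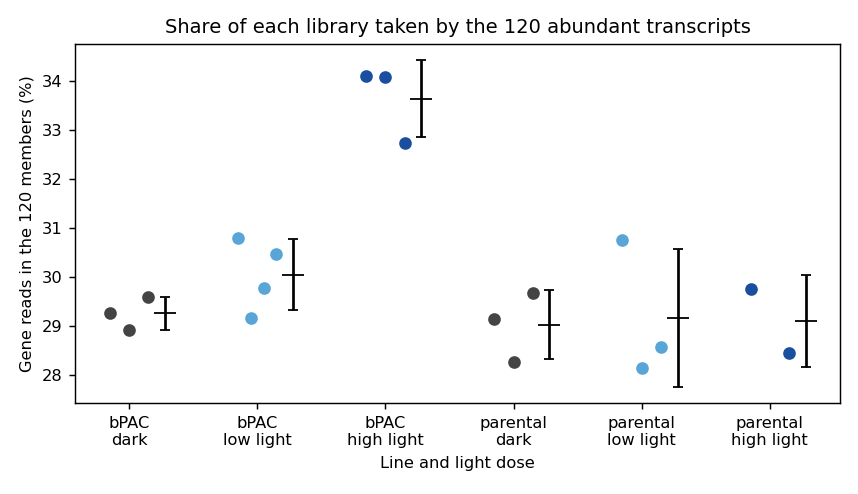
Share of gene reads (%) taken by the 120 members in each of the 18 libraries (points), with the group mean and SD beside them (bars); the vertical axis does not start at 0. The 3 high-light bPAC libraries lie between 32.7 and 34.1% and the other 15 libraries between 28.1 and 30.8%.

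The rest of the library did not move as one. In bPAC cells the IDs that were neither members nor left out above held 55.1% of gene reads in the dark, 52.9% under low light and 50.1% under high light. The named block held 9.05% ± 0.637 (SD, n = 3) of gene reads in the dark, 10.5% ± 0.420 (SD, n = 4) under low light and 9.75% ± 0.914 (SD, n = 3) under high light. The 21 abundant IDs left out by their ratios held 6.56, 6.46 and 6.37% in the same order, and 3.72, 3.91 and 3.93% in parental cells. In parental cells the remainder was 57.3, 56.8 and 57.4%.

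**Figure D2:**
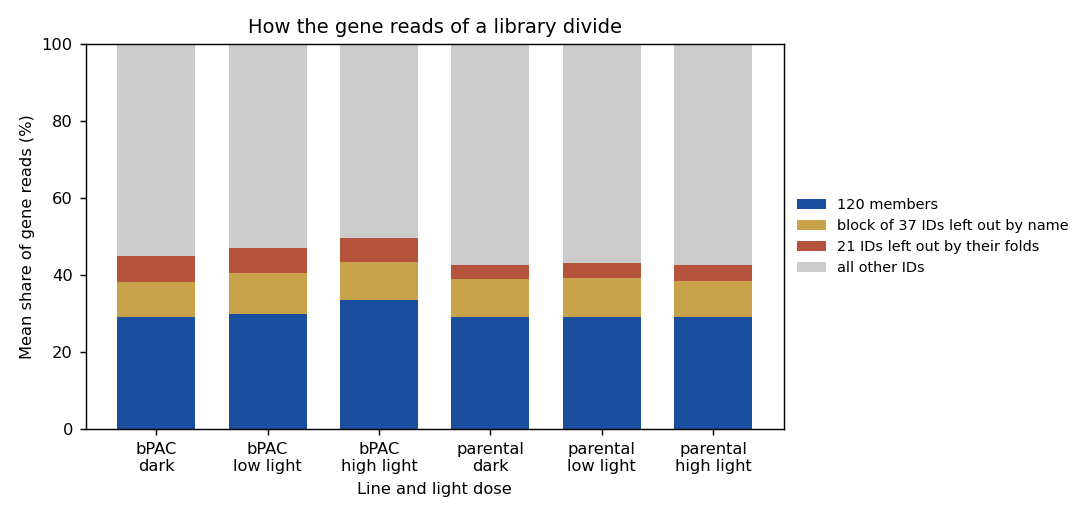
Mean share of gene reads (%, stacked from 0 to 100) in each group, divided into the 120 members, the block of 37 IDs left out by name, the 21 abundant IDs left out by their ratios, and all other IDs. The member segment is 33.6% in bPAC cells under high light and 29.0 to 30.05% in the other 5 groups.

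The gain under high light was spread over the levels of abundance. Members of 5000 CPM or more gained 1.71 points together, those of 2000 to 5000 CPM gained 1.45 points and those of 1000 to 2000 CPM gained 1.23 points. The median log2 ratio of lit to unlit mean CPM was 0.36, 0.12 and 0.10 in the same order, so the 11 most abundant members had the highest median. Under low light in bPAC cells these medians were 0.10, -0.05 and -0.15. In parental cells they were 0.02, -0.09 and -0.05 under low light and -0.05, -0.08 and 0.00 under high light. Parental cells under low light thus also had their highest median in the top group. In bPAC cells under low light the order depended on the libraries: the medians were -0.09, 0.07 and -0.09 without bPAC low light 1 and 4, and 0.27, -0.09 and -0.18 without 2 and 3. Gains of single members in bPAC cells under high light summed to 7.02 points and losses to -2.63 points, and the 10 members with the largest gains supplied 3.42 points. Under low light the gains were 4.53 and the losses -3.74 points, with 3.39 and -3.18 points without bPAC low light 1 and 4 and 6.15 and -4.77 points without 2 and 3.

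A set chosen without bPAC libraries is given beside the members. Of all IDs outside the named ones, 142 averaged at least 1000 CPM in unlit parental cells, and 108 of them were members. This set, added after the data were seen, held 34.9% ± 0.439 (SD, n = 3) of gene reads in unlit, 35.9% ± 0.648 (SD, n = 4) in low-light and 39.6% ± 1.02 (SD, n = 3) in high-light bPAC cells. The high-light libraries spanned 38.5 to 40.5% and the unlit ones 34.5 to 35.4%. In parental cells it held 34.1% ± 0.773 (SD, n = 3), 33.98% ± 1.15 (SD, n = 3) and 33.98% ± 1.18 (SD, n = 2). Since most of its genes are members, it is no independent set.

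Single members moved in both directions. In bPAC cells under low light, 55 members lay above and 65 below their unlit mean, with a median log2 ratio of -0.07 and a range from -1.34 to 1.10. Every lit library was above every unlit library for 27 members (22.5%; 15.8% of the 8530 tested genes) and below for 36 (30%; 25.8% of the tested genes). Without bPAC low light 1 and 4, 54 members lay above the dark, 29 were higher in every library (24.2%; 20.1% of the tested genes) and 41 lower (34.2%; 29.4%). Without bPAC low light 2 and 3, 55 lay above, 41 were higher in every library (34.2%; 24.5% of the tested genes) and 51 lower (42.5%; 35.5%). Under high light, 72 lay above and 48 below, with a median of 0.12 and a range from -1.27 to 1.19. Here 46 members (38.3%; 10.9% of the tested genes) were higher in every lit library and 20 (16.7%; 33.1% of the tested genes) were lower in every one. Without bPAC high light 1, 2 and 3 in turn, 73, 74 and 66 members lay above the dark under high light. The median over all tested genes was -0.24 under high light and -0.08 under low light. The rule bounds the members' ratios and not those of the other genes, so nothing is read from these shares.

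Between the lit bPAC groups, 83 members were higher and 37 lower under high than under low light, with a median log2 ratio of 0.21, against -0.17 over all tested genes. The groups did not overlap for 23 members with high light above low light (19.2%; 4.76% of the tested genes) and for 11 with the opposite order (9.17%; 19.3% of the tested genes). Without bPAC low light 1 and 4, 82 members were higher and 38 lower (median 0.17), and the groups did not overlap for 41 higher (34.2%; 8.29% of the tested genes) and 13 lower (10.8%; 31.4%). Without bPAC low light 2 and 3, 79 were higher and 41 lower (median 0.20), with 46 (38.3%; 14.9% of the tested genes) and 18 (15%; 28.9%) that did not overlap. The medians over all tested genes were -0.21 without bPAC low light 1 and 4 and -0.10 without 2 and 3. These contrasts share the lit libraries with those above.

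These counts depend on the scale. TMM scaling, which centres each library on its typical gene and not on its read total, moved the median of all tested genes up by 0.10 under low light, 0.28 under high light and 0.17 between the lit groups in bPAC cells. On that scale 61 members were above and 59 below the dark under low light, 92 above and 28 below under high light (median log2 ratio 0.43), and 100 above and 20 below under high against low light.

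**Figure D3:**
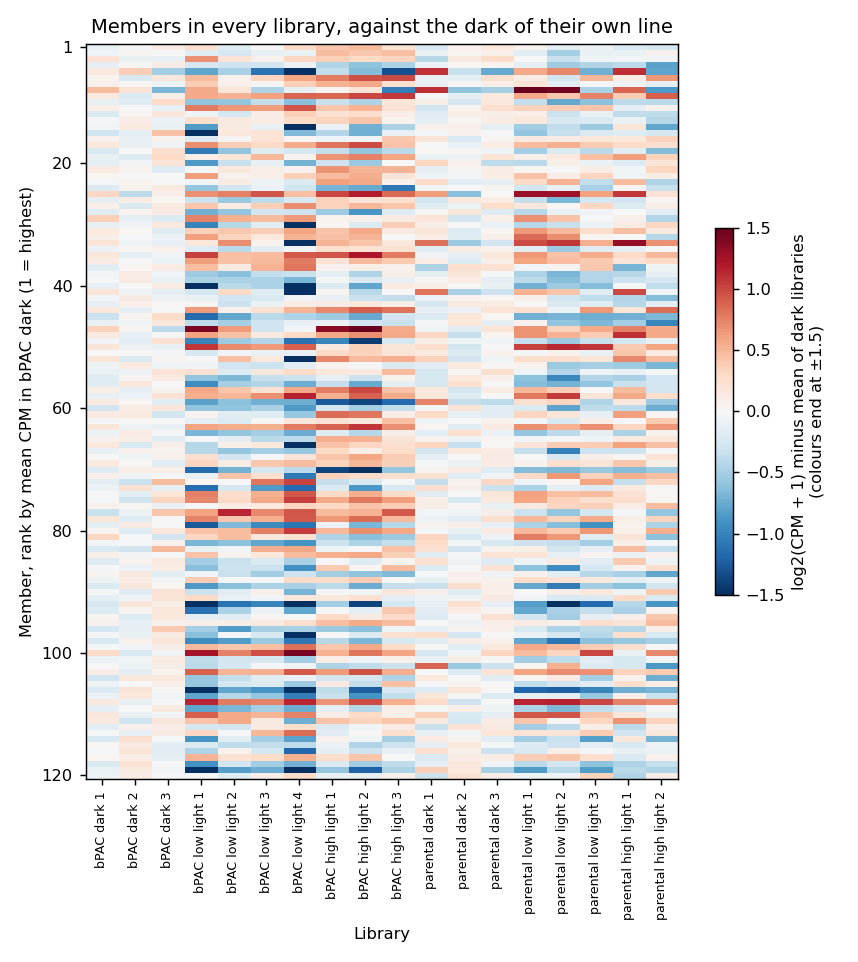
Level of the 120 members (rows, from highest to lowest mean CPM in unlit bPAC cells) in the 18 libraries (columns), as log2(CPM + 1) minus the mean of the unlit libraries of the same line, with colours ending at ±1.5. Red rows and blue rows stand side by side at every level, and under high light in bPAC cells 46 members are higher and 20 lower than the dark in every library.

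The 4 most abundant members did not move together. ENSCAFG00000017553 had 12058, 12742 and 13948 CPM in unlit bPAC cells, 15383, 11386, 12859 and 15694 CPM under low light and 17069, 17859.6 and 14853 CPM under high light. Its low-light values overlapped the dark and its high-light values were all above it, with log2 ratios of 0.10 and 0.36. In parental cells it had 10748, 12986 and 13850.0 CPM in the dark, 12905, 11362 and 11687 CPM under low light and 10796 and 10347 CPM under high light, and the high-light values overlapped only the lowest unlit one. edgeR's quasi-likelihood test gave a parental log2 fold change of -0.00 ± 0.17 (SE) at low light (adjusted p = 0.998) and of -0.18 ± 0.19 (SE) at high light (adjusted p = 0.702).

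ENSCAFG00000030896 was lower under low light and higher under high light. Its CPM was 10152, 10869.8 and 10623 in unlit, 9359, 8828, 9768 and 9825 in low-light and 14560.5, 14005 and 14462 in high-light bPAC libraries, 3 ranges that did not overlap. Its log2 ratios to the dark were -0.16 and 0.44. Parental cells had 11485, 12610.2 and 13013 CPM in the dark, 11108, 8676 and 11474 CPM under low light and 11509.5 and 12952 CPM under high light. The parental low-light values were also the lowest of the line, but the change did not pass the test (log2 fold change -0.19 ± 0.14 (SE), adjusted p = 0.407 by edgeR), and at high light it was 0.05 ± 0.16 (SE) with adjusted p = 0.917.

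ENSCAFG00000006674 had 10891, 8764 and 8703 CPM in unlit bPAC cells, 15169, 10855, 9808 and 11656 CPM under low light and 12025, 11589.7 and 11771 CPM under high light. The high-light values were all above the dark, while bPAC low light 2 and 3 overlapped it. Parental cells had 6694, 9829 and 10801, 8972, 7102 and 8568 and 8706 and 8690.3 CPM in the same order of doses. The parental groups overlapped, and edgeR gave adjusted p = 0.81 at low light and 0.996 at high light.

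ENSCAFG00000000064 took less of the library under light in both lines. Its CPM in bPAC cells was 8576, 9410.3 and 10025 in the dark, 7817, 7491, 7646 and 8767 under low light and 6826, 6152 and 6711 under high light, log2 ratios of -0.24 and -0.51. All high-light values were below all low-light values. In parental cells it had 8490.4, 9208 and 9317 CPM in the dark, 8115, 6223 and 6555 CPM under low light and 6859.8 and 5152 CPM under high light. Every lit parental library was below every unlit one, but neither parental difference passed edgeR's test, with log2 fold changes of -0.31 ± 0.16 (SE; adjusted p = 0.225) and -0.51 ± 0.19 (SE; adjusted p = 0.192).

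As a group these 4 held 4.23% of gene reads in unlit, 4.31% in low-light and 4.93% in high-light bPAC cells, and 4.30, 3.76 and 3.75% in parental cells. The parental libraries overlapped for these 4, at 3.74 to 4.70% in unlit, 3.34 to 4.11% in low-light and 3.71 to 3.79% in high-light cells. The 20 most abundant held 12.1, 12.5 and 14.1% in bPAC cells and 11.7, 11.4 and 11.5% in parental cells, where the libraries overlapped as well. Under low light in bPAC cells, the 4 and the 20 held 3.93 and 12.03% without bPAC low light 1 and 4, and 4.68 and 12.9% without 2 and 3.

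The highest log2 ratios in bPAC cells under low light were those of ENSCAFG00000032596 and ENSCAFG00000004107. ENSCAFG00000032596 had 1426, 1004 and 1137 CPM in the dark and 2792, 1967, 2294 and 3148 CPM under low light, a log2 ratio of 1.10, and 1688, 2048 and 1777 CPM under high light. In parental cells it had 1157, 1331 and 1743 CPM in the dark, 1928, 1743 and 2779 CPM under low light and 1299.7 and 2288 CPM under high light, and the low-light difference did not pass edgeR's test (log2 fold change 0.66 ± 0.24 (SE), adjusted p = 0.0754; adjusted p = 0.492 at high light). Both lit bPAC groups were above the dark, and low light was above high light on average.

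ENSCAFG00000004107 was higher under light in both lines. Its CPM was 1233, 1045 and 1106 in unlit, 2492, 1925, 1888 and 2487 in low-light and 1789.9, 2221 and 1637 in high-light bPAC libraries. Parental libraries had 1066, 704 and 882 CPM in the dark, 1922, 1960.1 and 1754 CPM under low light and 1460.4 and 1425 CPM under high light. Within each line, every lit library was above every unlit one. The parental low-light rise passed edgeR's test, with a log2 fold change of 1.14 ± 0.20 (SE; adjusted p = 0.00211), the largest among the members, while high light gave 0.76 ± 0.22 (SE; adjusted p = 0.117).

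The lowest log2 ratios in bPAC cells under low light were those of ENSCAFG00000000720 and ENSCAFG00000002533. ENSCAFG00000000720 had 1053, 1409.9 and 1335 CPM in the dark, 357, 583, 633 and 427 CPM under low light and 880.3, 478 and 1049 CPM under high light. In parental cells it had 1129, 1448 and 1126 CPM in the dark, 693, 331 and 547 CPM under low light and 914 and 670.0 CPM under high light. All lit values were below the unlit values of the same line, and low light was lower than high light on average in both lines. The parental low-light fall passed edgeR's test (log2 fold change -1.17 ± 0.28 (SE), adjusted p = 0.0126), but not without parental dark 2 (adjusted p = 0.0593) or parental low light 2 (adjusted p = 0.0707), and at high light adjusted p was 0.402.

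For ENSCAFG00000002533 the unlit bPAC libraries had 947, 1119 and 988 CPM, the low-light libraries 283, 574, 606 and 189 CPM and the high-light libraries 674, 436 and 733 CPM. The lowest values were those of bPAC low light 1 and 4. Parental cells had 984, 849 and 545 CPM in the dark, 427, 571 and 430.5 CPM under low light and 580.4 and 559 CPM under high light, with overlap, and edgeR gave adjusted p = 0.183 and 0.63.

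Under high light the highest log2 ratios in bPAC cells were those of ENSCAFG00000001324 and ENSCAFG00000016534. ENSCAFG00000001324 had 2476, 2007 and 1482 CPM in the dark, 5184, 3029, 1588 and 1898 CPM under low light and 4985, 5804 and 2858 CPM under high light. The high-light log2 ratio was 1.19, and the values within each lit group were widely spread. Parental cells had 2290.2, 2139 and 2743 CPM in the dark, 3785, 2990.5 and 3532 CPM under low light and 3999 and 3538 CPM under high light. All lit parental values were above the unlit ones, with edgeR's adjusted p = 0.326 at low light and 0.412 at high light.

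ENSCAFG00000016534 had 3632, 2232 and 3074 CPM in unlit, 4682, 4948, 5596 and 4001 CPM in low-light and 5839, 6589.9 and 5275 CPM in high-light bPAC libraries, with log2 ratios of 0.69 and 0.99. Both lit groups lay above the dark. Parental cells had 3447, 1442 and 2239 CPM in the dark, 5489, 5384 and 3399 CPM under low light and 4649 and 2589.5 CPM under high light. These parental ranges overlapped, and the low-light rise passed edgeR's test (log2 fold change 1.05 ± 0.31 (SE), adjusted p = 0.0375) while high light did not (adjusted p = 0.368).

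The lowest log2 ratios in bPAC cells under high light were those of ENSCAFG00000003075 and ENSCAFG00000015818. ENSCAFG00000003075 had 1921, 1772 and 1545 CPM in the dark, 999.9, 1137, 1051 and 1045 CPM under low light and 723, 672 and 773 CPM under high light, 3 ranges that did not overlap. Its log2 ratios were -0.72 and -1.27. Parental libraries had 1646, 779 and 752 CPM in the dark, 1166, 1232 and 725 CPM under low light and 1115 and 679 CPM under high light, with parental dark 1 above the rest. The parental log2 fold changes were 0.02 ± 0.28 (SE) and -0.18 ± 0.31 (SE), with edgeR's adjusted p = 0.974 and 0.83.

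ENSCAFG00000015818 had 1315, 1608 and 1613 CPM in the dark, 678, 917, 1262 and 1148 CPM under low light and 579.6, 457 and 1003 CPM under high light in bPAC cells. Parental libraries had 1774, 1861 and 1498 CPM in the dark, 1081, 1066 and 1148 CPM under low light and 1089 and 1158 CPM under high light. Lit values were below unlit values in every library of both lines, and edgeR gave parental adjusted p = 0.101 and 0.328.

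The largest single gain in points was that of ENSCAFG00000023471, singled out after its values were seen. Its CPM was 7287, 6023 and 7929.8 in unlit, 9806, 7374, 8815 and 10504 in low-light and 12017, 13646 and 13952 in high-light bPAC libraries, a gain of 0.612 points under high light. Every high-light library was above every low-light and unlit one. Parental cells had 8053, 7974 and 10341 CPM in the dark, 9401, 7150.4 and 12331 CPM under low light and 9428 and 13716 CPM under high light, with overlap and edgeR's adjusted p = 0.606 and 0.357.

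**Figure D4:**
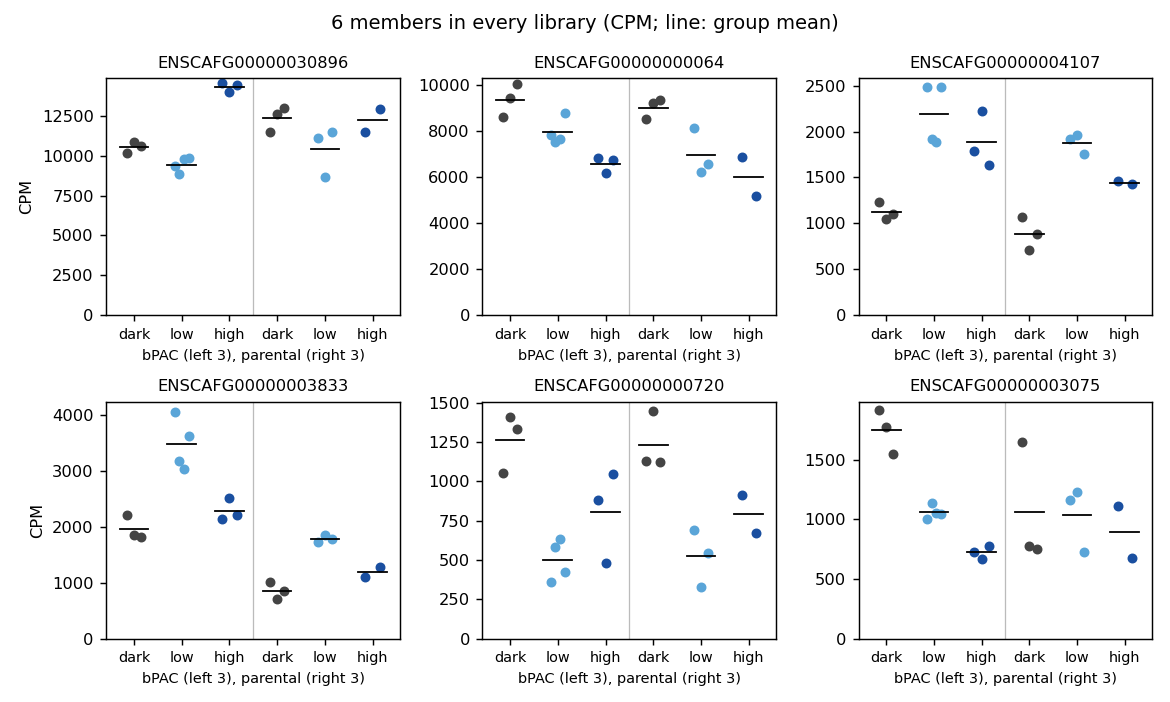
CPM of 6 members in every library (points, with a line at the group mean), bPAC cells on the left and parental cells on the right of each panel, all axes from 0. ENSCAFG00000030896 is lowest under low light and highest under high light in bPAC cells, and ENSCAFG00000003075 averages 1746 CPM in unlit and 722 CPM in high-light bPAC cells while its parental groups overlap.

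In parental cells, which have no bPAC and chose no member, light against dark could be tested. The rule bounded the bPAC ratios, which correlated with the parental ones over all tested genes (Pearson r 0.762 at low light, 0.484 at high light). It may thus bound the members' parental ratios in part. Nothing is therefore read from the members' rates beside those of all tested genes. The test was edgeR's quasi-likelihood test over all 8530 genes that passed a filter on low counts (all 120 members passed), with Benjamini-Hochberg adjustment. At low light 18 members had an adjusted p under 0.05. Of these, 9 (7.50%) rose, by log2 fold changes of 0.53 to 1.14, where 6.76% of all tested genes rose, and 9 (7.50%) fell, by -1.17 to -0.43, where 4.68% of all tested genes fell. The median log2 fold change was 0.01 over the members and -0.01 over all tested genes. By CPM, 55 members were above and 65 below the dark, with a median log2 ratio of -0.05. Every lit library was above every unlit one for 24 members (20%; 15.7% of the tested genes) and below for 34 (28.3%; 17.8% of the tested genes). TMM scaling turned the split to 61 above and 59 below.

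The calls at low light rested on few libraries. Leaving out 1 library at a time gave 3 to 14 calls, with 4 without parental dark 2, 8 without parental low light 1 and 3 without parental low light 2. Over all tested genes the share called fell as well, from 11.4% to 2.85, 7.43 and 3.16% in these fits, where 3.33, 6.67 and 2.5% of members were called. Without parental dark 1, 14 members were called (11.7%; 8.68% of all tested genes). Without parental dark 3, the unlit library that stood apart, 13 members were called (10.8%; 12.4% of all tested genes). The members called under every alternative and with every library left out were ENSCAFG00000003833, ENSCAFG00000004107 and ENSCAFG00000006670. ENSCAFG00000006670, named for this after its values were seen, had 1406, 1696 and 1664 CPM in unlit, 921, 744 and 1036 CPM in low-light and 1066 and 1124 CPM in high-light parental libraries. Its low-light fall had a log2 fold change of -0.76 ± 0.16 (SE; adjusted p = 0.00674 by edgeR), and high light gave -0.47 ± 0.18 (SE; adjusted p = 0.23). In bPAC cells it had 1039.7, 1266 and 1384 CPM in the dark, 642, 681, 832 and 582 CPM under low light and 913, 761 and 1013 CPM under high light, and lit values were below unlit values in both lines.

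ENSCAFG00000003833 had the smallest adjusted p of any member. Its CPM was 1014, 699.8 and 849 in unlit, 1727, 1851 and 1775 in low-light and 1108 and 1272 in high-light parental libraries. Low light stood above the other groups without overlap (log2 fold change 1.11 ± 0.18 (SE), adjusted p = 0.000897 by edgeR), while high light gave 0.53 ± 0.20 (SE; adjusted p = 0.208). bPAC cells had 2216, 1845 and 1812 CPM in the dark, 4064, 3181, 3031 and 3628 CPM under low light and 2146, 2508 and 2213 CPM under high light, so the low-light group was again the highest. Its unlit level was about 1958 CPM in bPAC and 854 CPM in parental cells.

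ENSCAFG00000019472 fell in low-light parental cells, from 981, 1267 and 1129.6 CPM to 493, 477 and 562 CPM, with 675 and 692 CPM under high light. The fall passed edgeR's test (log2 fold change -1.08 ± 0.25 (SE), adjusted p = 0.011), with adjusted p = 0.0513 without parental low light 2, and high light gave -0.65 ± 0.28 (SE; adjusted p = 0.282). All lit parental values were below the unlit ones. In bPAC cells it had 975, 1287 and 1144 CPM in the dark, 284, 659, 609.9 and 371 CPM under low light and 866, 477 and 951 CPM under high light.

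At high light 0 members passed edgeR's test in parental cells, against 0.176% of all tested genes. There were 19 members (15.8%) with an unadjusted p under 0.05, against 15.1% of all tested genes, and the smallest adjusted p of a member was 0.0936. DESeq2 called 2 members, ENSCAFG00000000190 (adjusted p = 0.0375) and ENSCAFG00000007200, and limma-voom 0. Over all tested genes these tools called 1.58% and 0.0586%, and the 2 members are 1.67% of the 120. Only 2 parental libraries had high light. By CPM, 55 members were above and 65 below the dark (63 and 57 with TMM scaling), with a median log2 ratio of -0.05, and both lit libraries were above all unlit ones for 21 members (17.5%; 13.9% of the tested genes) and below for 20 (16.7%; 18.1% of the tested genes).

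The highest log2 ratios by CPM in high-light parental cells were those of ENSCAFG00000006436 and ENSCAFG00000007200. ENSCAFG00000006436 had 2737, 1063 and 1269 CPM in the dark, 3044, 3252 and 2252 CPM under low light and 3840.4 and 2480.2 CPM under high light in parental cells. Parental dark 1 overlapped the lit libraries, and the log2 fold change was 0.96 ± 0.51 (SE; edgeR's adjusted p = 0.39) at high light and 0.80 ± 0.46 (SE; adjusted p = 0.283) at low light. In bPAC cells it had 2944, 2450.0 and 2359 CPM in the dark, 2871, 4183, 2674 and 752 CPM under low light and 3652, 3433 and 2885 CPM under high light, with bPAC low light 4 far below the others.

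ENSCAFG00000007200 had 2257, 1432 and 1879 CPM in unlit, 2914, 2628 and 2377 CPM in low-light and 3894 and 2706 CPM in high-light parental libraries. Lit values were all above unlit values, and edgeR gave 0.89 ± 0.22 (SE; adjusted p = 0.0936) at high light and 0.56 ± 0.20 (SE; adjusted p = 0.0789) at low light. DESeq2 gave adjusted p = 0.0383 at high light. bPAC cells had 2195, 1819 and 1935 CPM in the dark, 2999.6, 2688, 2165 and 2431 CPM under low light and 2954, 3215 and 2941 CPM under high light.

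The lowest log2 ratios at high light were those of ENSCAFG00000007199 and of ENSCAFG00000019472, described above. ENSCAFG00000007199, whose ID is next to that of ENSCAFG00000007200, had 2185, 2478 and 2010.4 CPM in unlit, 2312, 1476 and 1392 CPM in low-light and 1542 and 1123 CPM in high-light parental libraries. Both high-light values were below the dark, with a log2 fold change of -0.66 ± 0.24 (SE; edgeR's adjusted p = 0.185), and low light gave -0.30 ± 0.21 (SE; adjusted p = 0.375). In bPAC cells it had 1852, 1907 and 2249 CPM in the dark, 1531, 1409.6, 1622 and 1828 CPM under low light and 1878, 1636 and 1584 CPM under high light.

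High against low light in parental cells gave 0 called members by edgeR (0.0117% of all tested genes), DESeq2 and limma-voom, with 15 members (12.5%) at an unadjusted p under 0.05 against 12.7% of all tested genes. The groups did not overlap for 21 members with high light above low light (17.5%; 16.2% of the tested genes) and 20 with high light below (16.7%; 18.2% of the tested genes). By CPM 71 members were higher and 49 lower under high light, with a median log2 ratio of 0.11.

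Both lines can be set side by side at each dose. Across the 120 members, the log2 ratios of lit to unlit mean CPM in bPAC and parental cells had a Pearson r of 0.839 and a Spearman rho of 0.837 at low light. These are correlations across genes, which share libraries and are not independent replicates. At low light 46 members were above the dark in both lines, 56 below in both, 9 above in bPAC cells alone and 9 above in parental cells alone. The same direction was seen for 85.0% of members and 76.8% of all tested genes (r 0.762). The members have more reads than most tested genes and a smaller median spread between libraries. The part of this in the difference was not tested. Without bPAC low light 1 and 4 the members' r was 0.838, and 107 of the 120 had the same direction in both lines. Without 2 and 3 the members' r was 0.763, and 96 had the same direction. The values over all tested genes without each pair are not given here. All 9 members called higher in low-light parental cells were above the dark in low-light bPAC cells, by log2 ratios of 0.59 to 0.96, and all 9 called lower were below it, by -1.34 to -0.46. The same rate over all called genes is not given here, so this agreement is not read as particular to the members.

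At high light Pearson's r was 0.707 and Spearman's rho 0.723 over the members, with 49 above the dark in both lines, 42 below in both, 23 above in bPAC cells alone and 6 above in parental cells alone. The direction was the same for 75.8% of members and 65.8% of all tested genes (r 0.484), with the same limit from reads and spread. The bPAC ratio exceeded the parental one by a median of 0.13 on the log2 scale, against -0.17 over all tested genes, while at low light these medians were -0.01 and -0.03. The bPAC ratios chose the members, so these differences between lines were not tested.

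**Figure D5:**
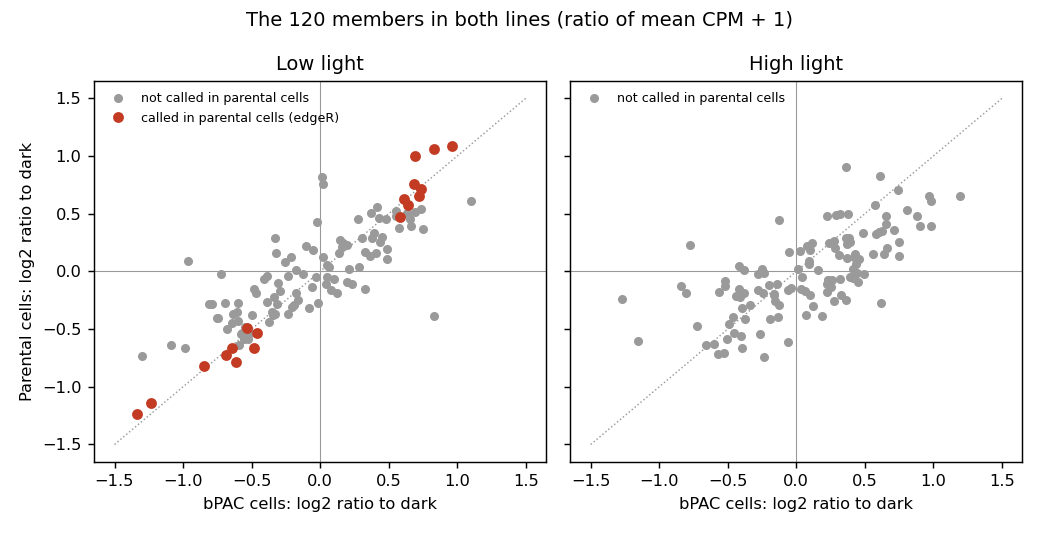
Log2 ratio of lit to unlit mean CPM (1 added) of the 120 members in bPAC cells (horizontal) and parental cells (vertical) under low light (left) and high light (right), with the dotted line at equal ratios; red points passed edgeR's test in parental cells. The 18 red points under low light lie in the quadrants of equal direction, and under high light 23 members lie to the right of 0 for bPAC and below 0 for parental cells.

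1 member lay on opposite sides of the dark in the lines at low light, with no overlap in either. The share of all tested genes with this pattern is not given here, so nothing is read from the count. ENSCAFG00000029013, singled out after its values were seen, had 1095, 1312 and 1853 CPM in unlit and 2098, 3060.2, 2293 and 2653 CPM in low-light bPAC cells, and 2688, 2668 and 2923 CPM in unlit and 2209, 1838 and 2300.3 CPM in low-light parental cells. Low light was above the dark in every bPAC library and below it in every parental library. Its log2 ratios were 0.83 and -0.38, and edgeR's parental test did not pass (adjusted p = 0.33). Under high light it had 1919, 1994 and 2622 CPM in bPAC and 2725 and 1846 CPM in parental cells, so both bPAC doses were above the bPAC dark, and the parental high-light range overlapped the parental dark.

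The spread between libraries of a group was as follows. The median coefficient of variation of a member's CPM was 10.8% in unlit, 14.5% in low-light and 11.9% in high-light bPAC cells, and 12.7, 12.4 and 14.6% in parental cells. Over all tested genes, most of which have far fewer reads, the medians were 20.1, 25.7, 22.5, 21.9, 20.1 and 19.6% in the same order. Some members spread more widely, such as ENSCAFG00000008704, singled out after its values were seen, with 7770.2, 6427 and 3481 CPM in unlit bPAC and 4824, 1467 and 1585 CPM in unlit parental libraries. Its lit values were 8288, 6346, 4053 and 5134 CPM and 5744, 6396 and 2713 CPM in bPAC cells and 6254, 6037 and 1610.0 CPM and 4093 and 1232 CPM in parental cells, and edgeR's parental adjusted p was 0.415 at low light and 0.964 at high light. ENSCAFG00000029189 was high in the same parental libraries. It had 13710, 9539, 10579 and 13913 CPM in dark 1, low light 1 and 2 and high light 1, and 5106, 3804, 3905 and 3709 CPM in the others. ENSCAFG00000016534, called at low light, was also highest in these libraries within each dose. This split is uneven over the doses. Its part in the parental light differences was not tested, and members that share it were not counted. The number of members that reached 1000 CPM was 113 to 118 in single unlit bPAC libraries, 86 to 102 under low light, 97 to 108 under high light and 99 to 108 in parental libraries. The members were chosen by their level in unlit bPAC cells. Lower counts elsewhere were therefore fixed in part by the choice.

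The genes nearest to the thresholds of the rule are given with their values. The lowest member was ENSCAFG00000024818, with 961, 1093 and 995 CPM in unlit bPAC cells (mean 1016) and log2 ratios of 0.05 and -0.06, and parental adjusted p of 0.713 and 0.843 by edgeR. The nearest gene outside was ENSCAFG00000018524, with 921, 1044 and 1025 CPM (mean 997) and log2 ratios of -0.74 and -1.08. The member nearest to the fold limit was ENSCAFG00000029189, with 9986, 11595 and 6320.1 CPM in unlit, 5267, 6423, 4187 and 3170.2 CPM in low-light and 6995, 5739 and 3599 CPM in high-light bPAC cells and log2 ratios of -0.97 and -0.77. It lost the most points of any member under both doses, and in parental cells it ranged from 3709 to 13913 CPM with overlap of all groups (edgeR's adjusted p = 0.91 and 0.866). The nearest gene beyond the fold limit was ENSCAFG00000002782, with 1200.5, 1564 and 1277 CPM in unlit, 348, 669, 599 and 338 CPM in low-light and 785, 333 and 1088 CPM in high-light bPAC cells and log2 ratios of -1.46 and -0.87.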

How the data were processed

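RNA behind 18 libraries was sequenced as tags from the 3′ end of transcripts (QuantSeq 3′ FWD, per the labels' protocols). The authors deposited raw read counts per gene and library, and the submitters' processing notes name the dog build CanFam3.1. Which aligner, counting tool and annotation were used is not given in the sources used here. Each table holds 32220 gene IDs and 5 rows for reads with no gene, which were left out of totals and tests. In single libraries, 37.5 to 44.4% of the deposited counts were reads with no unique alignment and 25.1 to 29.6% lay on no gene. Each library had 2638511 to 9610144 gene reads, and all members had at least 642 reads in every library.

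CPM was computed as count over the sum of gene rows, times 1000000. Ratios are of group mean CPM with 1 CPM added. Tests used edgeR 4.0.16 (R 4.3.3) quasi-likelihood fits of all 18 libraries in 6 groups, with TMM scaling, filterByExpr (minimum count 10) and Benjamini-Hochberg adjustment over 8530 genes, called at 0.05. They were also run on simulated counts drawn independently for each gene. These counts lack the differences shared by many genes between libraries of a group, so that run cannot show how the tests fare with them. Only parental contrasts were tested, since bPAC libraries chose the members. Alternatives used DESeq2 1.42.0, limma 3.58.1 (voom), 1 surrogate variable from sva 3.50.0, other filters, other thresholds of the rule, and fits without each library. Replicates of a group differed by 9.41 to 72.7 chi-square units per degree of freedom over 19 pairs, so none were copies of each other.

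The members and lists were chosen with earlier results of these data known. Named genes are the 4 highest members in unlit bPAC cells, the 2 highest and 2 lowest log2 ratios in each light comparison with the dark, and the genes nearest to each threshold. Lists of pathway genes and of cell type markers could not be applied, since 0 IDs matched the reference table (assembly UU_Cfam_GSD_1.0).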

Additional observations from a re-analysis of the deposited data

Results flagged for a closer look

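1 result was flagged among the members. ENSCAFG00000029013 lay above the dark in all low-light bPAC libraries, with a log2 ratio of mean CPM of 0.83, and below the dark in all low-light parental libraries, with a log2 ratio of -0.38. It was the only one of 120 members with such opposite, non-overlapping directions at either dose, and the difference between the lines was not tested, since the bPAC libraries chose the members. The share of all tested genes with such directions is not given here, so the count is not read as unusual. Low-light bPAC cells were the only group with 4 libraries, the smallest number for which a single distant library was looked for. Of 22 values examined there, 0 passed the limit for an outlier among 4, which needs a very wide gap.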

How the results depend on the processing

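All alternatives kept the direction of the members' gain in bPAC cells under high light (4.39 points). It was 3.18 points with a fold limit of 0.5 and 2.95 points for the members within the limit at both doses. On the TMM scale the member sums differed by 12.02. TMM-scaled values do not add up to the whole of a library, so differences on that scale are not shares of gene reads. The low-light gain in bPAC cells (0.793 points) was 1.39 points with the block left out of the total, 0.401 for the members within the limit at both doses and 0.131 with a fold limit of 0.5 (3.14 on the TMM scale). In parental cells the low-light difference (0.133 points) was -0.835 points with a fold limit of 0.5 and -0.590 with the limit met at both doses (1.24 on the TMM scale). In parental cells the high-light difference (0.0733 points) was -0.964 points for the members within the limit at both doses (1.30 on the TMM scale), and the cause was not tested. The rule gave 288 members at a minimum of 500 CPM and 46 at 2000 CPM, and with TMM scaling 112 members, of which 106 were among the 120. Calls at low light in parental cells ranged from 3 to 14 when 1 library was left out, against 18. In these fits 2.85 to 12.4% of all tested genes were called, against 11.4%. At high light edgeR called 3 members with 1 surrogate variable (ENSCAFG00000000190, ENSCAFG00000004107 and ENSCAFG00000007200), DESeq2 called 2, and 2 (ENSCAFG00000006436 and ENSCAFG00000007200) were called with no filter on low counts. These are 2.5, 1.67 and 1.67% of the members, where the same fits called 3.12, 1.58 and 1.36% of all tested genes. Of 108 alternative values for 8 parental results of named members, 101 stayed on their side of the threshold, 4 passed it and 3 lost it, with 0 reversed. Leaving out the low-light bPAC libraries in pairs and the set chosen by parental level were alternatives added after seeing the data. No paired analysis was possible because the labels give no replicate numbers shared between groups. Each group had 2 to 4 libraries and each member at least 642 reads in every library; which of these limits the precision was not tested.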
